A study of Mus musculus with 24 samples.

Results

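The genes described here are 8 transcripts that mark CA2 pyramidal cells, the small field between CA3 and CA1 of the hippocampus: Rgs14, Amigo2, Pcp4, Necab2, Map3k15, Ptpn5, Avpr1b and Sostdc1. They were taken by Ensembl identifier from a table of 55471 genes, and all 8 were present and passed the filter on low counts in the 12 mice, as did 18251 genes of the table. The set was chosen by the fall of Rgs14 in CBP-ifKOs kept in standard cages, with the other 7 genes added as CA2 markers to ask whether that fall is shared. The genotype values of the standard cage mice are therefore given as a description with no test. The mice housed in an enriched environment carry the tests, since the fall that chose Rgs14 was read in the standard cage mice. The members and lists were set with earlier results of these data known, so these mice are not a fully separate test set. Rgs14 and Necab2 also stand in the study's list of genes downregulated in CBP-ifKOs, which was drawn partly from the standard cage mice.

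Hippocampal RNA was sequenced from 12 female mice of the C57BL/6 strain (C57BL/6J in the study's methods) aged 3 to 6 months, with 3 mice in each of 4 groups. CBP-ifKOs carry floxed Crebbp alleles and the Camk2a-creERT2 transgene and were treated with tamoxifen, which removes CBP activity from excitatory neurons of the adult forebrain only and leaves a truncated protein. Controls were littermates without the creERT2 transgene that received tamoxifen as well. Mice of both genotypes lived either in a standard cage (SC) or in an enriched environment (EE), a large box with running wheels, tubes and toys. The RNA is of the whole hippocampus, so fewer CA2 cells and less RNA per CA2 cell cannot be told apart.

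CA2 pyramidal cells are known for weak long-term potentiation at their CA3 inputs and for a role in social memory. RGS14 is a scaffold that accelerates GTP hydrolysis on Gi/o alpha subunits and binds Ras proteins, and it restrains synaptic plasticity in CA2. Several of the other genes act in related ways: PCP4 tunes calcium binding by calmodulin, NECAB2 is a calcium-binding protein, and PTPN5 (STEP) dephosphorylates ERK, Fyn and NMDA receptor subunits. AMIGO2 is an adhesion molecule, AVPR1B is the vasopressin receptor linked to social behavior, MAP3K15 is a stress kinase of the ASK family, and SOSTDC1 is a secreted antagonist of BMP and Wnt signals. None of these genes is restricted to CA2; Ptpn5 and Necab2 are also abundant in striatal neurons, and Sostdc1 in choroid plexus epithelium. CBP is a lysine acetyltransferase recruited to promoters and enhancers by CREB and many other transcription factors.

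All 8 genes are protein coding, and they lie on 8 different chromosomes of GRCm38. Rgs14 (ENSMUSG00000052087) occupies chr13:55369732-55384687 on the plus strand, and its exons share no base with another annotated gene. Necab2 (ENSMUSG00000031837) lies at chr8:119446719-119472640 on the plus strand and Pcp4 (ENSMUSG00000090223) at chr16:96467606-96525793 on the plus strand. Of the 1026 exonic bases of Pcp4, 243 are shared with exons of Igsf5 on the same strand. Map3k15 shares 603 of its 4348 exonic bases with Pdha1 and Amigo2 shares 58 of 3163 with Pced1b, both on the opposite strand, and whether the counting used strand is not given in the sources used here.

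The promoter windows held for these genes in RefSeq (GRCm38.p6, 300 bases each, of which 250 lie before the start site) covered 4 of the 8 members: Amigo2, Pcp4, Necab2 and Ptpn5. The 250 bases before the start site are shown for the 2 members beside Rgs14 that passed the test below, Necab2 (chr8:119446469-119446718, plus strand) and Pcp4 (chr16:96467356-96467605, plus strand), and for Amigo2 (chr15:97247288-97247537, minus strand), which did not. They are printed 5′ to 3′ with every CG pair in capitals.
Necab2: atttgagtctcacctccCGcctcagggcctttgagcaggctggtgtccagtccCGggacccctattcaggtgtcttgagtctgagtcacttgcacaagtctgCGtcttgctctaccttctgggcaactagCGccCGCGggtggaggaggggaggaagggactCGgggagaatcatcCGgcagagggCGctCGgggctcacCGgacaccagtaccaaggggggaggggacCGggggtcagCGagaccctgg
Pcp4: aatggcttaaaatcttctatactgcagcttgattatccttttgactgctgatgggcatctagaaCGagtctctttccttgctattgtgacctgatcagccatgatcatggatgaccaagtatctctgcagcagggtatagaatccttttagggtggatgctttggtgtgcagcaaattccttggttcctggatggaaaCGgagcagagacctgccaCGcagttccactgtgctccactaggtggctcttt
Amigo2: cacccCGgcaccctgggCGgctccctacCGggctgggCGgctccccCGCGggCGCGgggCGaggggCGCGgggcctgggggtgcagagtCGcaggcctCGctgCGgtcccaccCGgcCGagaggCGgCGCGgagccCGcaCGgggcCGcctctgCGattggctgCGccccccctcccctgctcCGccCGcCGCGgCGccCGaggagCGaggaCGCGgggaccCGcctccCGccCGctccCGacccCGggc
The 3 windows differ widely in CG content. Over the whole 300 bases Necab2 held 17 CG pairs, Pcp4 held 6 and Amigo2 held 46, against a median of 7 over 32851 windows, so the 2 genes that passed the test lie on either side of that median. The short form of the cAMP response element to which CREB binds, TGACG or its reverse complement CGTCA, was found on neither strand in any window of these 4 genes, including both windows of Ptpn5. It was present in 20.8% of all windows, and the full palindrome TGACGTCA, which contains both of these, in 1.79%. This says only that these letters are not in these windows.

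Library totals lay between 26874015 and 27971488 counts in controls and between 28582210 and 37448388 in CBP-ifKOs, and no odd count occurred among 148570 nonzero values of the 6 CBP-ifKO libraries, whereas 54.0% to 55.1% of the nonzero values of a control library were odd. Whether the CBP-ifKO counts were doubled before deposit was not tested. If they were, the reads behind a CBP-ifKO count, and the CBP-ifKO library totals, are fewer than printed by that factor. Halving the CBP-ifKO counts changed no call among the members. Crebbp checked the genotype labels: its level, in CPM (counts scaled to the normalized library total), was 70.7 to 81.9 in SC controls and 69.6 to 77.1 in EE controls, and 50.0 to 51.5 in SC CBP-ifKOs and 44.5 to 48.3 in EE CBP-ifKOs. The groups did not overlap, and Crebbp was well above 0 in every CBP-ifKO. One library stood apart: the summed level of 8 choroid plexus markers was 1280 CPM in EE control replicate 1 and 38.4 to 67.8 CPM in the other 11 mice. Values of the CA2 genes that rest on that mouse are given with and without it.

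**Figure D1:**
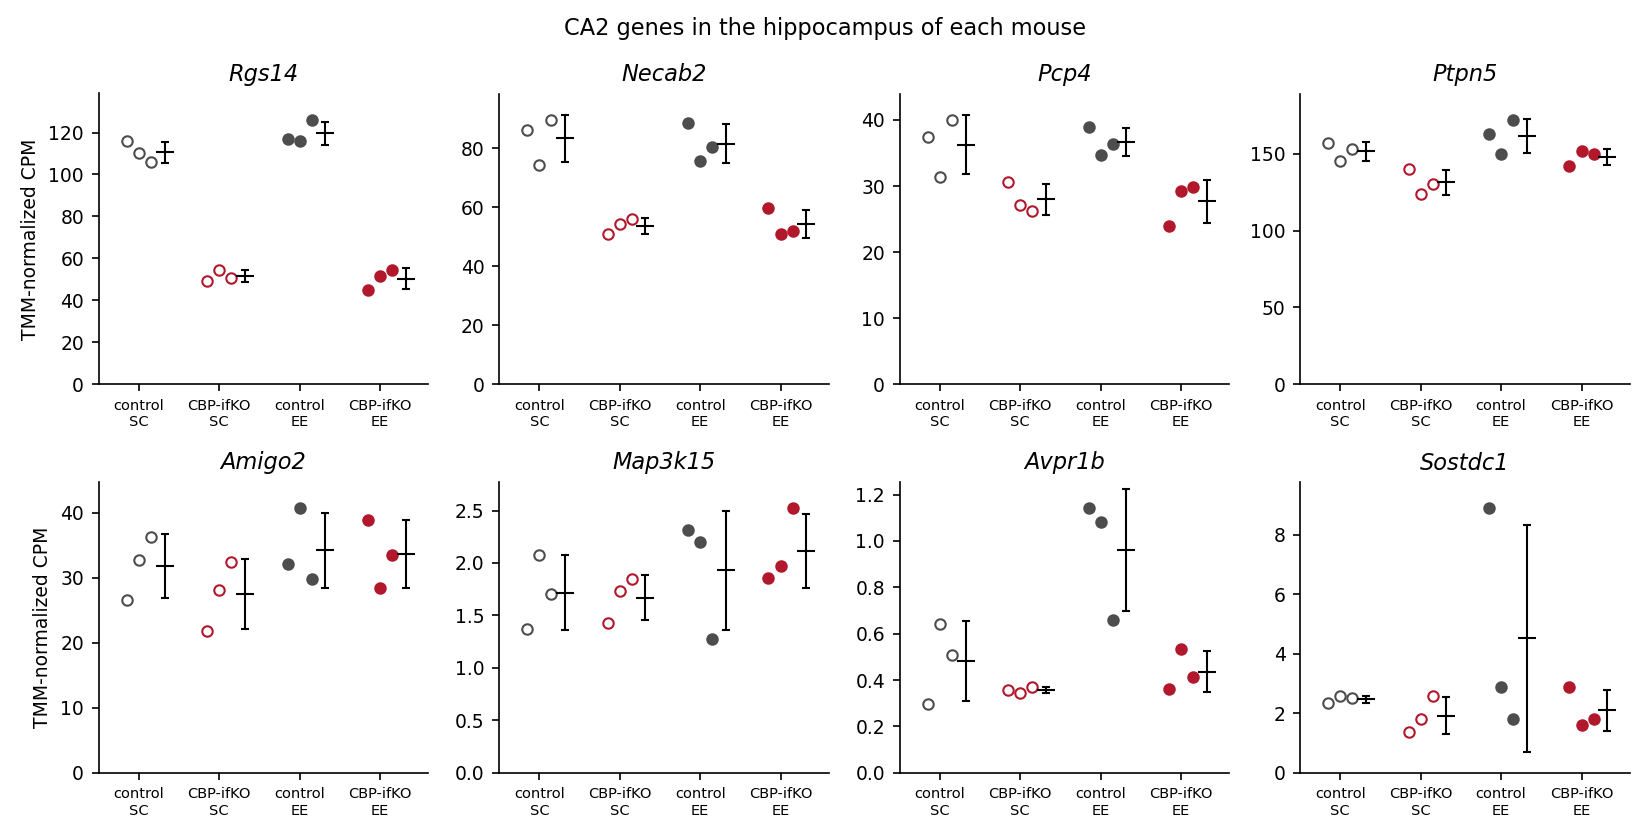
Level of each CA2 gene in each mouse, in CPM after TMM normalization on a linear axis from 0 that differs between panels. Open points are SC mice, filled points EE mice, grey controls and red CBP-ifKOs, and bars are the mean and SD of 3 mice. Rgs14, Necab2 and Pcp4 were lower in the CBP-ifKOs of both housings with no overlap, and Sostdc1 had 1 EE control at 8.88 CPM.

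Levels were compared between genes per kilobase of exon. Rgs14 was level with Ptpn5 in controls and below it in CBP-ifKOs. In SC controls, RPKM values (CPM divided by the exon length in kilobases) were 39.8 ± 3.81 for Necab2, 35.3 ± 4.33 for Pcp4, 26.2 ± 1.03 for Ptpn5 and 26.1 ± 1.16 for Rgs14 (SD, n = 3 mice each). Necab2 and Pcp4 overlapped in their ranges, as did Ptpn5 and Rgs14, while the lowest Pcp4 value of 30.6 was above the highest Ptpn5 value of 27.1. Amigo2 followed at 10.1 ± 1.54 RPKM. The other 3 genes were low in whole hippocampus, at 1.39 ± 0.0667 RPKM for Sostdc1, 0.395 ± 0.0810 for Map3k15 and 0.120 ± 0.0432 for Avpr1b. In SC CBP-ifKOs Rgs14, at 11.6 to 12.9 RPKM, lay below Ptpn5, at 21.5 to 24.2 RPKM, and above Amigo2, at 6.91 to 10.3 RPKM. In EE CBP-ifKOs the first 3 places were held by Pcp4 at 27.0 ± 3.20, Necab2 at 25.9 ± 2.32 and Ptpn5 at 25.6 ± 0.923 RPKM, whose ranges overlapped. Rgs14, at 11.9 ± 1.20 RPKM with values from 10.5 to 12.9, overlapped there with Amigo2, at 8.99 to 12.3 RPKM.

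Rgs14 RNA fell in CBP-ifKOs housed in EE, with the second smallest p of all genes tested. Its level was 117, 116 and 126 CPM in the 3 EE controls and 44.7, 51.8 and 54.6 CPM in the 3 EE CBP-ifKOs. The highest CBP-ifKO value was thus below every control value. The log2 fold change was -1.24 (SE 0.08, 95% interval -1.41 to -1.07), a level 57.7% lower, with an adjusted p of 3.57e-05 in edgeR's quasi-likelihood test over 17625 genes. Of the 623 genes called lower in EE CBP-ifKOs, 29 fell further than Rgs14. In the SC mice, by whose values it was chosen, Rgs14 stood at 116, 110 and 106 CPM in controls and at 49.0, 54.6 and 50.8 CPM in CBP-ifKOs. The log2 difference there was -1.10 (SE 0.06).

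The fall was shared by 2 of the other 7 genes. In all, 3 of the 8 members passed the test in the direction of a decrease in EE CBP-ifKOs, against 3.53% of all genes tested, and no member rose. Rgs14, chosen by its fall in SC CBP-ifKOs, is part of the counts and medians of the 8 genes given here. Without Rgs14 the count called is 2 of 7, and 1 of these, Necab2, also stands in the study's list. The median log2 fold change was -0.49 over the 8 genes and 0.01 over all genes tested. Without EE control replicate 1, the mouse with high choroid plexus markers, the median over the 8 genes was -0.25, and it was -0.53 to -0.48 with any other EE mouse left out. The groups did not overlap, with CBP-ifKOs lower, for 4 of 8 members, against 13.9% of all genes. Without a filter on low counts 5 members were called, Avpr1b and Sostdc1 being added, of which the Sostdc1 difference rests on EE control replicate 1.

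Necab2 was the clearest of the others. It stood at 88.7, 75.8 and 80.3 CPM in EE controls and at 59.9, 51.0 and 52.1 CPM in EE CBP-ifKOs. All 3 CBP-ifKO values lay below the controls, and the log2 fold change was -0.58 (SE 0.08), with an adjusted p of 0.00322 by edgeR. This is a level 32.9% lower, against the 57.7% of Rgs14. In the SC mice Necab2 was at 86.3, 74.4 and 89.6 CPM in controls and at 50.8, 54.4 and 56.0 CPM in CBP-ifKOs, a log2 difference of -0.63 (SE 0.07), so the values of the same genotype lay close together in both housings.

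The decrease of Pcp4 passed the test, but its call was lost when any of 5 of the 6 mice was left out. It was at 38.9, 34.7 and 36.4 CPM in EE controls and at 23.9, 29.3 and 29.8 CPM in EE CBP-ifKOs, again with no overlap. The log2 fold change was -0.40 (SE 0.09, 95% interval -0.60 to -0.20), with an adjusted p of 0.0312 by edgeR. The log2 fold change was -0.35 without control replicate 1 (adjusted p 0.0827) and -0.40 without control replicate 3 (adjusted p 0.0993). It was -0.30, -0.44 and -0.45 without CBP-ifKO replicate 1, 2 or 3 (adjusted p 0.0904, 0.0644 and 0.0671), and -0.44 without control replicate 2, which kept the call (adjusted p 0.0293). The SC values were 37.4, 31.4 and 40.0 CPM in controls and 30.6, 27.1 and 26.2 CPM in CBP-ifKOs, a log2 difference of -0.38 (SE 0.09).

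Ptpn5 and Amigo2, both well measured, did not follow Rgs14. Ptpn5 was at 163, 150 and 172 CPM in EE controls and at 142, 152 and 150 CPM in EE CBP-ifKOs, and the groups overlapped. Its log2 fold change of -0.12 had a 95% interval of -0.27 to 0.03 and an adjusted p of 0.351 by edgeR, and lay between -0.17 and -0.07 with 1 mouse left out. Amigo2 was at 32.2, 40.7 and 29.8 CPM in EE controls and at 38.9, 28.4 and 33.6 CPM in EE CBP-ifKOs, fully intermixed. Its log2 fold change was -0.01 (95% interval -0.29 to 0.27, adjusted p 0.974 by edgeR). The interval of neither gene reached the -1.07 that bounds the fall of Rgs14. In the SC mice Ptpn5 did not overlap between genotypes, at 157, 145 and 153 CPM in controls and 140, 124 and 130 CPM in CBP-ifKOs, a log2 difference of -0.21 (SE 0.06). Amigo2 overlapped there, with a log2 difference of -0.21 (SE 0.14) that lay between -0.35 and -0.07 with 1 mouse left out.

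The 3 genes with few reads gave wide intervals. Map3k15, with 35 to 63 counts in an EE control and 72 to 86 in an EE CBP-ifKO as deposited, was at 2.31, 2.20 and 1.28 CPM in EE controls and 1.86, 1.97 and 2.52 CPM in EE CBP-ifKOs. Its log2 fold change was 0.14 (95% interval -0.41 to 0.69, adjusted p 0.808 by edgeR), and that interval too lies above the -1.07 of Rgs14. Avpr1b, with 18 to 31 counts in an EE control and 14 to 20 in an EE CBP-ifKO as deposited, was at 1.14, 1.08 and 0.66 CPM in EE controls and at 0.36, 0.53 and 0.41 CPM in EE CBP-ifKOs. These groups did not overlap, but the log2 fold change of -1.12 (95% interval -1.85 to -0.39) did not pass the test (adjusted p 0.0841 by edgeR). For this receptor a fall as large as that of Rgs14 and one of well under its size were both within the interval. In the SC mice Avpr1b was at 0.30, 0.64 and 0.51 CPM in controls and at 0.36, 0.35 and 0.37 CPM in CBP-ifKOs, which overlapped.

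The difference of Sostdc1 rested on 1 mouse. It was at 8.88, 2.89 and 1.79 CPM in EE controls and at 2.89, 1.60 and 1.82 CPM in EE CBP-ifKOs. The high value belonged to EE control replicate 1, the mouse in which the summed choroid plexus markers reached 1280 CPM, while the other EE controls had 51.3 and 38.4 CPM and the EE CBP-ifKOs 39.1 to 67.8 CPM. All 7 choroid plexus markers that could be tested had negative values in EE CBP-ifKOs with that mouse included, with a median log2 fold change of -2.25 and none called, and no marker was at 0 in a mouse. The log2 fold change of Sostdc1 was -1.09 (SE 0.48, adjusted p 0.234 by edgeR) with that mouse and -0.14 (SE 0.30, adjusted p 0.87) without it. Without the same mouse Rgs14 was at -1.26 and Necab2 at -0.51, both still called, and Avpr1b at -0.98 (adjusted p 0.248).

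**Figure D2:**
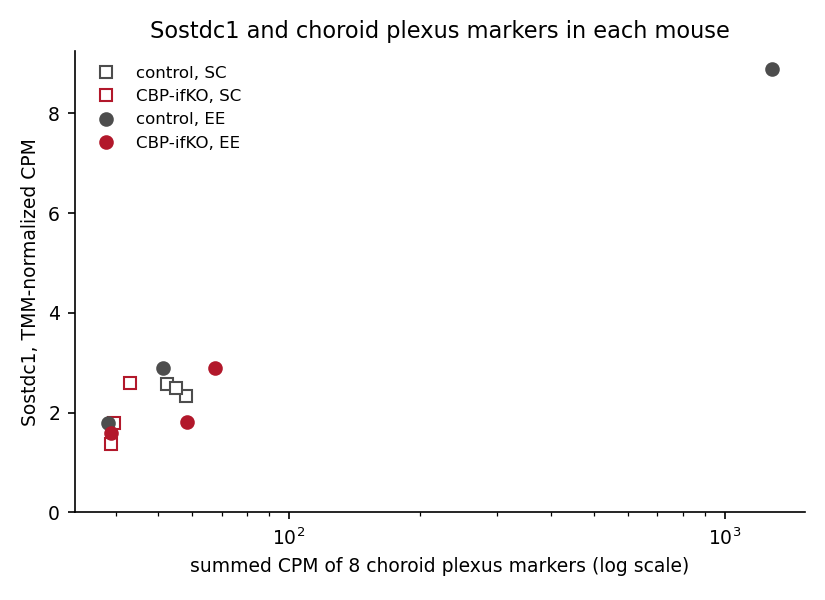
Sostdc1 level in CPM against the summed level of 8 choroid plexus markers in CPM on a log axis, 1 point for each of 12 mice. One EE control lies at 1280 and 8.88 CPM, and the other 11 mice lie between 38.4 and 67.8 CPM on the horizontal axis.

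**Figure D3:**
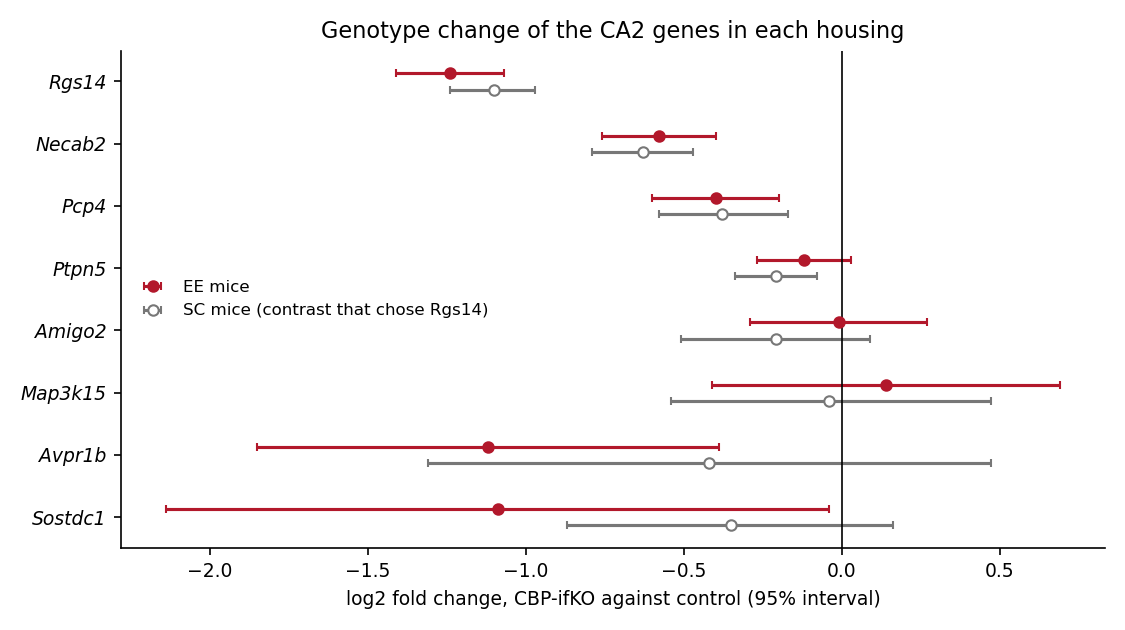
Fitted log2 fold change of each CA2 gene, CBP-ifKO against control, with its 95% interval, in EE mice (filled, 3 against 3) and in SC mice (open, 3 against 3, shown as a description). Rgs14 lies at -1.24 and -1.10, Necab2 and Pcp4 lie between it and 0, and Avpr1b and Sostdc1 have the widest intervals.

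In the SC mice all 8 genes had lower fitted values in CBP-ifKOs, with a median log2 difference of -0.36, and 4 of 8 did not overlap (Rgs14, Necab2, Pcp4 and Ptpn5). The share over all genes was 13.8%, but nothing is read from the comparison, since Rgs14 was chosen by these values and is part of both the count and the median. The smallest difference was that of Map3k15 at -0.04, which turned to 0.12 without SC control replicate 2 and to 0.06 without SC CBP-ifKO replicate 1.

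Within a mouse, the level of Rgs14 relative to 5 of the other 7 members was lower in every EE CBP-ifKO than in any EE control. The same held for the ratio of Rgs14 to 93.9% of the other genes, so this count says nothing particular about the members, and the sizes of the shifts are given as a description. The log2 ratio of Rgs14 to Necab2 was 0.39 to 0.65 in EE controls and -0.42 to 0.07 in EE CBP-ifKOs, a mean shift of -0.66. The shift was -0.84 against Pcp4, -1.12 against Ptpn5, -1.23 against Amigo2 and -1.42 against Map3k15. For these 5 genes the ratios of the 2 genotypes did not overlap, which gives an exact two-sided permutation p of 0.1 each, the smallest that 3 against 3 mice allow, and 0.14 after Benjamini-Hochberg adjustment over the 7 ratios. Against Avpr1b the shift was -0.13 (p = 0.8, exact permutation test, adjusted 0.8) and against Sostdc1 -0.43 (p = 0.6, exact permutation test, adjusted 0.7), with overlapping ratios. All 7 ratios share the same Rgs14 values.

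**Figure D4:**
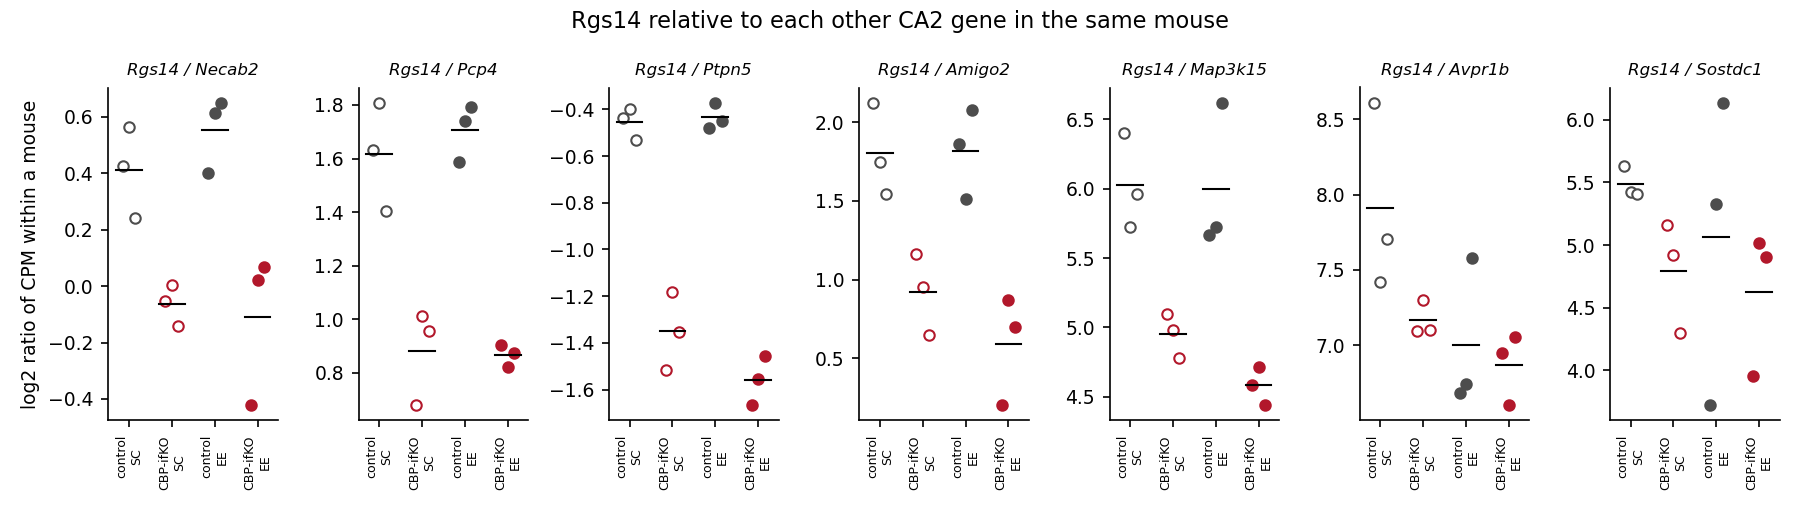
Log2 ratio of Rgs14 CPM to the CPM of each other CA2 gene within a mouse, 1 point per mouse and a line at each group mean, with a vertical axis that differs between panels. For Necab2, Pcp4, Ptpn5, Amigo2 and Map3k15 the CBP-ifKO ratios lie below the control ratios in both housings, and for Avpr1b and Sostdc1 they overlap in EE mice.

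Housing changed no member by a call. In control mice, 0 of 18251 genes passed edgeR's test between EE and SC, which is 0% of genes, with 768 at an unadjusted p below 0.05, and DESeq2 called 15 and edgeR without a filter on low counts 145. Rgs14 was at 106 to 116 CPM in SC controls and 116 to 126 CPM in EE controls, a log2 difference of 0.12 (SE 0.07), given with no test. Avpr1b was at 0.30 to 0.64 CPM in SC controls and 0.66 to 1.14 CPM in EE controls, with a log2 fold change of 0.99 (SE 0.35, unadjusted p 0.0127, adjusted p 0.999 by edgeR). These 2 genes were the members whose EE controls all lay above the SC controls, which held for 4.2% of all genes. Rgs14 was chosen by its SC values, so it is not read against that share. Sostdc1, at 0.87 (SE 0.43) with EE control replicate 1, was at -0.08 without it.

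In CBP-ifKOs the housings differed for 2 of 18251 genes, or 0.011%, and neither was a member. DESeq2 called 54, and edgeR called 247 without a filter on low counts and 0 with halved counts or with any 1 of these 6 mice left out. Rgs14 stood at 49.0 to 54.6 CPM in SC and at 44.7 to 54.6 CPM in EE, a log2 difference of -0.03 (SE 0.07) that carries no test. Ptpn5 had the smallest p of the members, at 124 to 140 CPM in SC and 142 to 152 CPM in EE, with a log2 fold change of 0.17 (SE 0.06, unadjusted p 0.0141, adjusted p 0.48 by edgeR). Map3k15 also did not overlap (1.43 to 1.85 CPM in SC and 1.86 to 2.52 CPM in EE), so that 2 of 8 members were higher in EE without overlap, against 7.69% of all genes. Both housing comparisons and the SC genotype values use the same SC mice.

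Whether the genotype change itself differed between housings was asked with the interaction term, and it was called for 0 of 18251 genes by edgeR and by DESeq2, or 0%, with 574 at an unadjusted p below 0.05 in edgeR, which called 110 without a filter on low counts. Rgs14 had an interaction of -0.15 on the log2 scale (SE 0.10), and between -0.21 and -0.07 with 1 mouse left out, given with no test. For Avpr1b it was -0.71 (SE 0.51, 95% interval -1.80 to 0.38) and between -0.96 and -0.46 with 1 mouse left out, the latter without SC control replicate 1. For Sostdc1 it was -0.75 (SE 0.62, 95% interval -2.07 to 0.57), and 0.21 without EE control replicate 1, the mouse with high choroid plexus markers. Neither passed the test (adjusted p 1 by edgeR), and the intervals leave room for a difference between housings in either direction.

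Of 11 other genes reported to mark CA2, all tested, 1 fell and none rose in EE CBP-ifKOs, with a median log2 fold change of -0.32 and 4 whose groups did not overlap. Over all genes 3.53% were called lower and 13.9% were lower without overlap. The 1 called gene was Adora1, the adenosine A1 receptor, at 241, 252 and 259 CPM in EE controls and 185, 206 and 187 CPM in EE CBP-ifKOs (log2 fold change -0.37, SE 0.06, adjusted p 0.00832 by edgeR). The other 3 without overlap were Ntf3 (neurotrophin-3), Actn2 (an actin crosslinker) and Oxtr (the oxytocin receptor). Their log2 fold changes were -0.51 (adjusted p 0.0852), -0.34 (adjusted p 0.092) and -0.32 (adjusted p 0.178). Acan, the core protein of perineuronal nets, was at 6.50, 6.94 and 5.59 CPM in EE controls and 3.56, 3.63 and 6.10 CPM in EE CBP-ifKOs, with 1 CBP-ifKO among the controls (-0.51, adjusted p 0.198 by edgeR).

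Of 14 close relatives of the members 10 could be tested, and 1 of them fell in EE CBP-ifKOs, against 3.53% of all genes. It was Necab3, at 23.6, 18.7 and 24.8 CPM in controls and 13.8, 14.7 and 15.2 CPM in CBP-ifKOs (log2 fold change -0.62, SE 0.11, adjusted p 0.00967 by edgeR). Necab1, of the same calcium-binding family, was at 0.18 (adjusted p 0.249), with the opposite sign to Necab2 and Necab3. The RGS proteins Rgs12, the nearest relative of Rgs14 in domain structure, and Rgs10 were at -0.17 (adjusted p 0.178) and -0.18 (adjusted p 0.324). Rgs12 did not overlap, at 41.5, 37.6 and 38.7 CPM in EE controls and 34.9, 34.6 and 34.6 CPM in EE CBP-ifKOs, and 3 of the 10 relatives were lower without overlap, against 13.9% of all genes. Map3k6, an ASK family kinase like Map3k15, was at 1.25, 0.733 and 1.43 CPM in EE controls and 2.99, 1.65 and 1.82 CPM in EE CBP-ifKOs, without overlap as were 2015 of 17625 genes, but did not pass the test (0.93, adjusted p 0.12 by edgeR). The other vasopressin receptors, Avpr1a and Avpr2, were too low to test.

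Of 19 genes for signalling partners of RGS14 and STEP, 5 fell and none rose in EE CBP-ifKOs, against 3.53% of all genes called lower, and the median log2 fold change was -0.08. Of the 19, 10 were lower without overlap, against 13.9% of all genes, and none higher. Ptk2b (the tyrosine kinase PYK2, a STEP substrate) had a log2 fold change of -0.41 (SE 0.07, adjusted p 0.00592 by edgeR). Mapk3 (ERK1), Rap2a (a small GTPase bound by RGS14), Map2k1 (MEK1) and Gnao1 (the Go alpha subunit) fell by between 0.21 and 0.30 on the log2 scale. Grin2b, an NMDA receptor subunit that STEP dephosphorylates, was at -0.36 (SE 0.09, adjusted p 0.0504 by edgeR), just short of the threshold. The Gi alpha subunits Gnai1, Gnai2 and Gnai3 were at -0.03, 0.09 and 0.10, and Hras at -0.08, none of them called.

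Marker lists of the neighbouring hippocampal fields also held decreased genes in EE CBP-ifKOs. The counts were 5 of 6 for CA1 pyramidal cells (median log2 fold change -0.43), 1 of 6 for CA3 pyramidal cells (-0.22) and 5 of 8 for dentate granule cells (-0.69), beside 3.53% of all genes tested. Without EE control replicate 1 the medians were -0.46, -0.29 and -0.73 in the same order, and the CA3 median was -0.13 without EE control replicate 2. Summed over the 6 genes, the CA1 markers were at 794 to 859 CPM in EE controls and 563 to 584 CPM in EE CBP-ifKOs. The sums were 206 to 237 against 186 to 203 CPM for CA3 and 319 to 388 against 234 to 280 CPM for dentate granule cells. Of 5 general markers of excitatory neurons 1 fell (median -0.02), with sums of 2440 to 2680 CPM in EE controls and 2090 to 2290 CPM in EE CBP-ifKOs, and no marker of interneurons, astrocytes, oligodendrocytes or microglia was called. Of the markers of regions next to the hippocampus, 1 of 7 for striatum (Ppp1r1b, log2 fold change -0.53, adjusted p 0.0276 by edgeR) and 1 of 6 for thalamus and habenula (Prkcd, -0.50, adjusted p 0.0197) fell, the latter list having 3 positive and 3 negative values with a median of 0.16, and 1 of 6 for endothelial and meningeal cells rose (Col1a1, 0.72, adjusted p 0.0393). Summed levels were also lower in EE CBP-ifKOs without overlap for several of these lists. The striatal sum, of interest because Ptpn5 and Necab2 are abundant there, was 139 to 144 CPM in EE controls and 117 to 124 CPM in EE CBP-ifKOs. The sums were 870 to 946 against 820 to 855 CPM for interneurons, 1450 to 1500 against 1290 to 1360 CPM for astrocytes, and 215 to 234 against 195 to 202 CPM for microglia. Abundant genes weigh most in a sum. Slc1a3, at 753 CPM in EE controls and 618 in EE CBP-ifKOs on average, was the largest part of the astrocyte sum. By gene, the median log2 fold change was -0.06 for astrocytes (2 positive, 3 negative) and -0.05 for interneurons (1 positive, 5 negative). It was -0.19 for microglia (0 positive, 5 negative) and -0.21 for striatum (2 positive, 5 negative). The part of these other cell types in the member values was not tested.

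**Figure D5:**
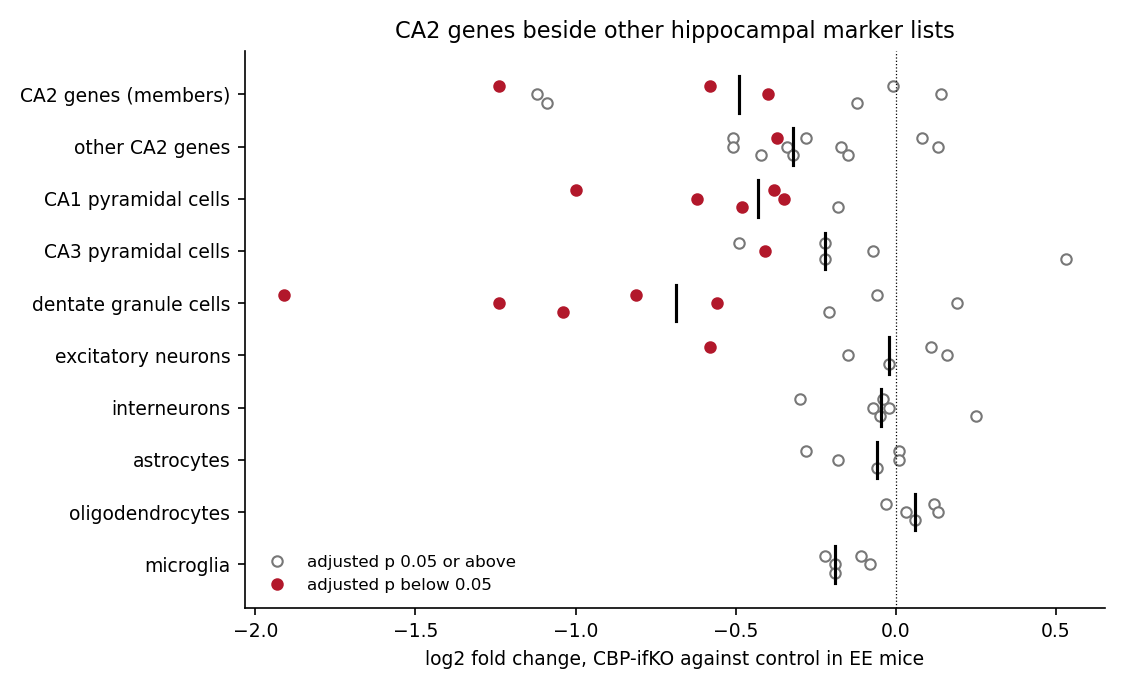
Log2 fold change of each gene of 10 lists, CBP-ifKO against control in EE mice, filled where edgeR's adjusted p was below 0.05, with a vertical bar at the median of each list. The CA2 members have 3 filled points and a median of -0.49 (-0.25 without EE control replicate 1), beside -0.43 (-0.46) for CA1 and -0.69 (-0.73) for dentate granule cell markers.

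As a description, genes were ranked by how near their pattern over the 12 mice lay to that of Rgs14. The SC values by which Rgs14 was chosen enter this measure, and genes with a fall of about the same size come first. Nearness was the root mean square difference of log2 CPM over the 12 mice, each gene centred on its mean in SC controls, among 18250 genes. Among the nearest were Tesc (0.141), Trpc6 (0.169), Serpina3n (0.204) and Car12 (0.206). Tesc, which encodes the calcium-binding protein tescalcin, was at 30.4 ± 0.736 CPM in SC controls, 15 ± 1.51 in SC CBP-ifKOs, 31.8 ± 3.11 in EE controls and 15.4 ± 0.895 in EE CBP-ifKOs (SD, n = 3 mice each). Trpc6, a cation channel, is on the dentate granule cell list above. The nearest member was Necab2, in place 125 with a difference of 0.385.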

How the data were processed

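RNA of the hippocampus was sequenced by the study in 50-bp single-end reads. Per the labels and the study's methods, the authors trimmed reads with Trim Galore 0.6.4, aligned them to mm10 with STAR 2.6.1, kept alignments above a mapping quality limit, merged the 2 runs of each mouse and counted reads on exons with Rsubread. The table they deposited gives each gene's counts without normalization. Strand use in counting is not given in the sources used here.

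Counts were analyzed as deposited with edgeR 4.0.16: filterByExpr (minimum count 10), TMM normalization and the quasi-likelihood test, with Benjamini-Hochberg adjustment over all genes tested and a threshold of 0.05. The genotype comparison used the 6 mice of a housing, and housing and interaction the 12 mice with 1 coefficient per group. CPM are TMM-normalized, and RPKM divide them by the gene length in the deposited table. The test was also run on counts simulated from these data. The outcome is not reported here, and no value above rests on it. The members and gene lists were chosen with earlier results of these data known. Named genes are the members, the lists, Crebbp and the 5 genes nearest to Rgs14. Single genes that these rules name may be not reported here. Alternatives were DESeq2 1.42.0, its size factors, 2 other filters, a replicate block, halved and thinned CBP-ifKO counts, other sets of mice, and each mouse left out. A floor of 3 counts corresponds to 0.0801 to 0.112 CPM when scaled to the library totals without TMM normalization. These floor values are therefore not on the scale of the other CPM given here, and they cover counting error only.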

Additional observations from a re-analysis of the deposited data

How the results depend on the processing

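Rgs14 and Necab2 stayed called in EE mice under each of the 14 alternatives, with highest adjusted p values of 0.000803 and 0.0259. Without a filter on low counts 5 members were called in EE mice, with Avpr1b at an adjusted p of 0.0404 and Sostdc1 at 3.94e-05, and 1 member, Sostdc1 (adjusted p 0.0158), between housings in controls. In EE mice that fit gave Sostdc1 -1.11 with an SE of 0.22, against -1.09 with an SE of 0.48 in the main fit. Both Sostdc1 differences rest on EE control replicate 1. The number of genes called in EE mice ranged from 285 to 1296 under the other settings and was 1677 without a filter, against 805, and it was 285 and 286 without EE control or CBP-ifKO replicate 3 and 431 and 447 without CBP-ifKO replicate 1 or 2. No other member count changed by more than 1.5 times. Avpr1b was filtered out or given no adjusted p under DESeq2, the filter of 1 CPM in 3 mice and the thinned counts. In the SC genotype comparison it was also filtered out with halved counts.

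Leaving out 1 mouse at a time changed the sign of uncalled values, the largest of them those of Sostdc1 between housings in controls (0.87) and for the interaction (-0.75). In EE mice Amigo2 ranged from -0.13 to 0.13 and Map3k15 from -0.08 to 0.29. Between housings in controls Amigo2 ranged from -0.04 to 0.21, Pcp4 from -0.08 to 0.10, Necab2 from -0.11 to 0.02 and Sostdc1 from -0.08 to 1.26. In CBP-ifKOs Rgs14, given with no test, ranged from -0.09 to 0.05, Pcp4 from -0.07 to 0.08, Necab2 from -0.06 to 0.06 and Sostdc1 from -0.18 to 0.42, and Necab2 was at -0.00098 with halved and thinned counts. For the interaction Pcp4 ranged from -0.11 to 0.07, Necab2 from -0.03 to 0.13, Map3k15 from -0.06 to 0.32 and Sostdc1 from -1.13 to 0.21. The cause was not tested.

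Whether the replicate numbers pair the mice is not settled by these values. Deviations of same-numbered mice correlated at 0.114, 0.124 and 0.0341 between the EE genotypes and at 0.191, 0.305 and 0.0335 between control housings. The other 2 comparisons had values from -0.0472 to 0.102, so not every pair was above 0.1. With the replicate number as a block 3 members were again called in EE mice and none in the other comparisons. The count of genes called was then 1089 in EE mice (805 without the block) and 17 between housings in CBP-ifKOs (2 without the block). Depth limits Avpr1b (8 to 31 counts) and Map3k15 (35 to 86 counts, as deposited) most. The edgeR p values rest on the spread between 3 mice a group, moderated by that of all genes, and for housing and interaction on the spread within all 4 groups.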
